A study of Mus musculus with 12 samples.

Results

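Ly6Clow monocytes, the patrolling subset of blood monocytes, were compared between C57Bl/6 mice given muramyl dipeptide (MDP) and C57Bl/6 mice given placebo, by RNA-seq of total RNA. This comparison holds 6 of the 12 samples of the series, 3 in Ly6Clow_MDP and 3 in Ly6Clow_Placebo. The titles of the MDP samples give a time of 16 h, while the word Naive stands in the placebo titles with no time. No allele and no other agent is named for these mice, and the sources used here do not say how the cells were sorted, whether animals were pooled or whether each sample came from a separate animal. The deposited table holds 23996 gene rows with 1 value for each condition, called q1 and q2, and none for a single sample. No source used here says which of q1 and q2 is MDP and which is placebo, and this was not inferred from the values. Every difference below is therefore q2 over q1, and no difference is tied to MDP or to placebo. Words such as fall, fell and moved name only the direction of q2 over q1, with no order in time.

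Genes were taken where the authors tested the row and the level reached at least 1 FPKM in q2 or q1, which left 10608 of 23996 rows. FPKM is the number of sequenced fragments of a gene scaled for transcript length and library size, and every FPKM value below is taken from the authors' deposited table. The response of a gene is log2((q2 FPKM + 1)/(q1 FPKM + 1)), so a response of 1 stands for about a 2-fold difference, and the added 1 understates the change of genes at low levels. A gene is called higher or lower in q2 where the authors' own q-value, the p-value adjusted over the genes they tested, is under 0.05. Since each level stands for a whole condition, no spread between samples can be given beside it, and depth per sample is unknown. In bulk samples, fewer cells of a type and less RNA per cell cannot be told apart.

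Ly6Clow monocytes arise from Ly6Chigh monocytes and crawl along the walls of blood vessels, where they take up debris and oxidised lipids. The nuclear receptor Nr4a1 is needed for their development and survival. MDP is a fragment of bacterial peptidoglycan. It is sensed in the cytosol by the receptor NOD2, which acts through the kinase RIPK2 on NF-kB and MAP kinase signalling.

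The labelled subset was checked against its markers. Nr4a1 was at 819 FPKM in q2 and 1514 FPKM in q1. Fcgr4, the Fc receptor that patrolling monocytes carry at high level, was at 274 FPKM in q2 and 630.0 FPKM in q1. The scavenger receptor gene Cd36 was at 195 FPKM in q2 and 190.0 FPKM in q1. In both conditions each of these markers lay above the level of at least 95.7% of the measured genes. Ly6c2, a gene of the Ly6C antigen that marks the other subset, was at only 3.98 FPKM in q2 and 5.78 FPKM in q1. F13a1, another marker of Ly6Chigh monocytes, was at 3.36 FPKM in q2 and 6.69 FPKM in q1 and was called lower. Ccr2, the chemokine receptor of Ly6Chigh monocytes, was at 72.6 FPKM in q2 and 80.2 FPKM in q1, a level that is not near 0. Nod2 itself was at 11.9 FPKM in q2 and 10.6 FPKM in q1 and was not called (q = 0.292 in the authors' deposited table). Ripk2 was at 22.5 FPKM in q2 and 28.1 FPKM in q1 and was called lower (q = 0.0244 in the authors' deposited table).

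Markers of other cells ranged widely in summed level between types, highest for erythroid and platelet markers, and differed between the conditions for some. All 11 measured B cell markers had a higher level in q2 and 6 of them were called higher, with a summed level over the whole list of 315 FPKM in q2 and 229.6 FPKM in q1. Of 10 measured dendritic cell markers 6 were called higher and 3 lower, with sums of 261 FPKM in q2 and 184 FPKM in q1. Of 10 measured tissue macrophage markers 1 was called higher and 6 lower, with sums of 107 FPKM in q2 and 246 FPKM in q1. NK cell markers summed to 38.2 FPKM in q2 and 23.6 FPKM in q1, with 3 of 8 called higher. T cell markers summed to 10.6 FPKM in q2 and 10.7 FPKM in q1, with 1 of 5 called higher. Thy1, called higher, was at 2.14 FPKM in q2 and 1.34 FPKM in q1. Lck was at 2.25 FPKM in q2 and 1.92 FPKM in q1, and Tcf7 at 1.76 FPKM in q2 and 1.94 FPKM in q1. Cd3g was at 1.11 FPKM in q2 and 1.53 FPKM in q1, and Cd247 at 1.11 FPKM in q2 and 0.699 FPKM in q1. None of Cd3d, Cd3e, Cd4 and Cd8a reached 1 FPKM in either condition. Of 4 measured neutrophil markers 3 were called higher and 1 lower, with sums of 103 FPKM in q2 and 154 FPKM in q1, while the granule genes Camp, Ngp, Ltf, Lcn2 and Mmp8 stayed under 0.24 FPKM in both and Stfa2 was at 0. Erythroid and platelet markers summed to 1124 FPKM in q2 and 982 FPKM in q1, with 2 of 9 called higher and 1 lower. These sums leave out the joint row of the alpha globin genes Hba-a1 and Hba-a2, which was at 2820.0 FPKM in q2 and 1947 FPKM in q1, shares its locus and was called higher (response 0.53). With that row the sums are 3944 FPKM in q2 and 2929 FPKM in q1. Hbb-bt, a beta globin gene, was at 529 FPKM in q2 and 387 FPKM in q1 and was called higher. The single measured marker of eosinophils, basophils and mast cells, Kit, was at 1.17 FPKM in q2 and 0.584 FPKM in q1 and was called higher, and Epx was at 0. Both measured endothelial and stromal markers, Vwf at 7.31 FPKM in q2 and 10.8 FPKM in q1 and Pdgfrb at 0.981 FPKM in q2 and 1.93 FPKM in q1, were called lower. Beside these counts, 14.8% of all measured genes were called higher and 12.8% lower. The part of other cells in the results below was not tested.

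Of the 10608 measured genes, 2923 were called, which is 27.6%, with 1567 higher in q2 (14.8%) and 1356 lower (12.8%). Most differences were small, since 89.7% of the called genes had a response under 1 in size. A response of at least 1 was reached by 185 genes called higher (1.74%) and one of -1 or below by 117 genes called lower (1.10%). A response of at least 2 was reached by 29 and one of -2 or below by 10. The median response was 0.48 among the genes called higher, -0.45 among those called lower and -0.00283 over all measured genes, whose quartiles were -0.18 and 0.19. The share of genes called was 28.8% under 2 FPKM, between 22.5% and 25.5% from 2 to 30 FPKM, 33.0% from 30 to 100 FPKM and 37.4% from 100 FPKM up. The authors' p-values have a floor of 5e-05, which 1390 measured genes share with a q-value of 0.000418 in the authors' deposited table. Of the 329 called genes chosen for naming, 267 lie at that floor and the highest q-value is 0.0437 in the authors' deposited table.

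**Figure D1:**
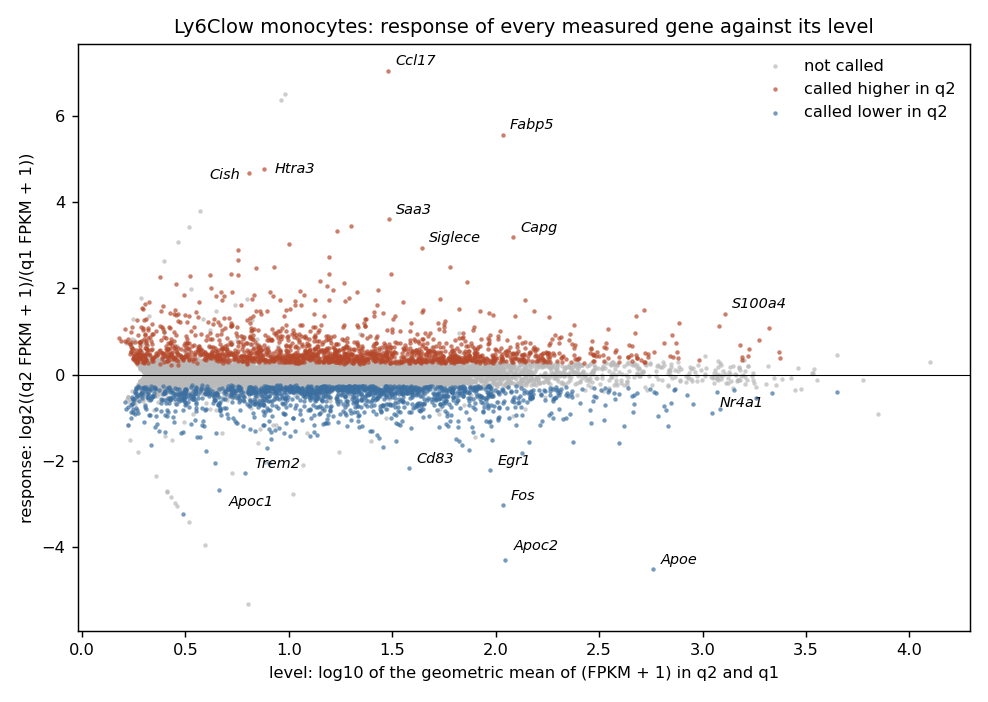
Response of each of the 10608 measured genes (vertical axis, log2 scale) against its level over both conditions (horizontal axis, log10 scale), with 1567 genes called higher in q2, 1356 called lower and the rest in grey. Ccl17 and Fabp5 stand far above the band and Apoe, Apoc2 and Fos far below it, while most called genes lie within 1 of 0.

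The gene with the largest response among those called was Ccl17, which encodes a chemokine that draws T cells carrying CCR4. It was at 347 FPKM in q2 and 1.61 FPKM in q1, a response of 7.06 (chromosome 8, 94810453 to 94812036 in mm10). Fabp5, a fatty acid binding protein, was at 742 FPKM in q2 and 14.7 FPKM in q1 (response 5.57). Htra3, a secreted serine protease, was at 38.6 FPKM in q2 and 0.457 FPKM in q1 (response 4.76). In each of these genes the level in q2 was many times that in q1. Cish, a cytokine-inducible inhibitor of STAT5 signalling, was at 31.5 FPKM in q2 and 0.272 FPKM in q1 (response 4.68). Saa3, an acute phase apolipoprotein, was at 105 FPKM in q2 and 7.71 FPKM in q1 (response 3.61). The lectin receptor gene Clec4n, which encodes Dectin-2, was at 64.9 FPKM in q2 and 5.0 FPKM in q1 (response 3.46). Further down the same ranking, Capg, which caps actin filaments, was at 367 FPKM in q2 and 39.4 FPKM in q1 (response 3.18). Slc52a3, a riboflavin transporter, was at 27.7 FPKM in q2 and 2.48 FPKM in q1 (response 3.04). Siglece, an inhibitory sialic acid receptor, was at 121 FPKM in q2 and 14.9 FPKM in q1 (response 2.94). The rest of the 15 were the protease inhibitor gene Spint1 (response 2.90), the lipid-presenting molecule gene Cd1d1 (response 2.74), the transcription factor gene Gfi1b (response 2.66), the costimulatory ligand gene Cd80 (response 2.50), the long noncoding RNA gene Gm14005 (response 3.33) and Cd300lf (response 2.49). Cd300lf shares its deposited locus with another row, so its level is uncertain.

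The largest fall was that of Apoe, which encodes apolipoprotein E and carries cholesterol out of macrophages. It was at 119.7 FPKM in q2 and 2767 FPKM in q1, a response of -4.52 (chromosome 7, 19696244 to 19699166 in mm10). Apoc2, the lipoprotein lipase cofactor, was at 23.8 FPKM in q2 and 494 FPKM in q1 (response -4.32). Fos, a subunit of the AP-1 transcription factor, was at 37.1 FPKM in q2 and 310.2 FPKM in q1 (response -3.03). These 3 genes were abundant in q1 and remained detectable in q2. Apoc1 was at 0.816 FPKM in q2 and 10.7 FPKM in q1 (response -2.68), and Trem2, a lipid-sensing receptor of macrophages, at 1.78 FPKM in q2 and 12.7 FPKM in q1 (response -2.30). Egr1, a zinc finger immediate early factor, was at 42.6 FPKM in q2 and 203 FPKM in q1 (response -2.23). Cd83, a surface protein of activated antigen-presenting cells, was at 16.9 FPKM in q2 and 79.8 FPKM in q1 (response -2.17). Further down were the AP-1 subunit gene Junb (response -1.83), the haemoglobin scavenger receptor gene Cd163 (response -1.77), Emr1, which encodes the macrophage antigen F4/80 (response -1.75), and the stress factor gene Atf3 (response -1.69). Dnajb13 (response -1.71), the noncoding Gm5086 (response -2.04) and Dmpk, which shares its locus with another row (response -2.06), complete the set with Mir6236. That microRNA row was listed at 0 in q2 and 8.37 FPKM in q1 (q = 0.0394 in the authors' deposited table), and FPKM of such short genes from this kind of library is unreliable.

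**Figure D2:**
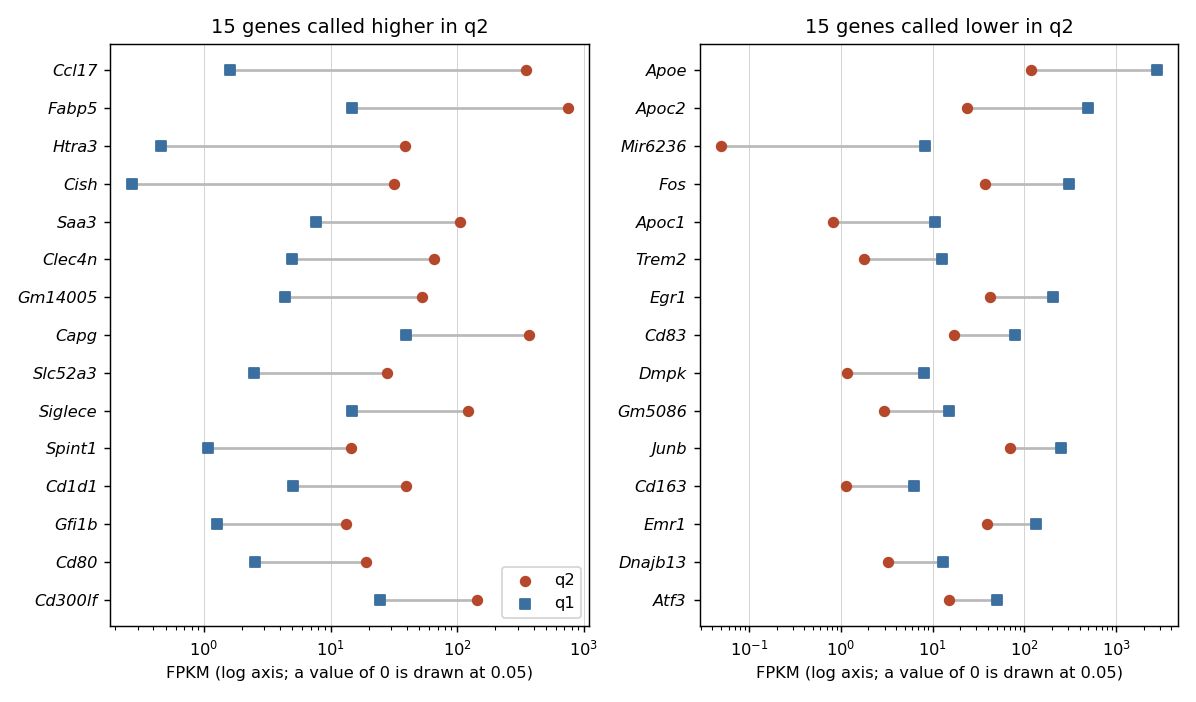
FPKM in q2 (circles) and q1 (squares) on a log axis for the 15 genes called higher (left) and the 15 called lower (right) with the largest response, ordered from the top by its size. Ccl17 is at 347 FPKM in q2 and 1.61 in q1, and Apoe at 120 FPKM in q2 and 2767 in q1, the widest gaps of each panel apart from the row drawn at the floor.

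Ranked by the difference in FPKM instead, the cytoskeleton and calcium-binding genes led. Tmsb10, which sequesters actin monomers, was at 3039 FPKM in q2 and 1447 FPKM in q1. S100a4, a calcium-binding protein of motile cells, was at 2084 FPKM in q2 and 784 FPKM in q1. The cysteine-rich protein gene Crip1 was at 1780.3 FPKM in q2 and 817 FPKM in q1, and Plac8 at 2483 FPKM in q2 and 1424 FPKM in q1. The other genes called higher in this ranking were Fabp5, the cyclophilin gene Ppia (1921 FPKM in q2 and 1202 FPKM in q1), the myosin light chain gene Myl6 (2052 FPKM in q2 and 1359.6 FPKM in q1), the tetraspanin gene Cd9 (1169 FPKM in q2 and 507 FPKM in q1), the profilin gene Pfn1 (2709.8 FPKM in q2 and 2064 FPKM in q1) and the joint row of Hba-a1 and Hba-a2 (2820.0 FPKM in q2 and 1947 FPKM in q1). Among the falls, Apoe was followed by Rps27rt, a ribosomal-like row that shares its locus, at 3893 FPKM in q2 and 5183 FPKM in q1. Next were Nr4a1 and H2-K1, a class I heavy chain, at 1504 FPKM in q2 and 2189 FPKM in q1. Zfp36, which destabilises cytokine messages, was at 448 FPKM in q2 and 1031 FPKM in q1. Dusp1, a phosphatase that switches off p38 and JNK, was at 228 FPKM in q2 and 686 FPKM in q1, and the antiviral membrane gene Ifitm2 at 707 FPKM in q2 and 1137 FPKM in q1. Apoc2, Fau at 1866 FPKM in q2 and 2502 FPKM in q1 and the joint row of Ear2 and Ear3 at 924 FPKM in q2 and 1605 FPKM in q1, which shares its locus, complete these 10.

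Cholesterol synthesis was the gene group with the highest median response of the 63 lists described. Cells make cholesterol from acetyl-CoA through mevalonate, isoprenoids, squalene and a chain of sterols, and the factor SREBP2 switches on these enzymes when membrane sterol is low. Of 24 measured genes, 22 were called higher in q2 and 0 lower, against 14.8% higher over all measured genes, and the median response was 1.36. At an unadjusted p under 0.05 the count lower was also 0 by Cuffdiff. All 24 had a response above 0, and 18 of them had a response of at least 1.

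In pathway order, the level in q2 was above that in q1 at early and late steps. Hmgcs1, which makes HMG-CoA, was at 40.2 FPKM in q2 and 15 FPKM in q1. Mvd, which makes isopentenyl diphosphate, was at 52.1 FPKM in q2 and 12.7 FPKM in q1 (response 1.95). Idi1, its isomerase, was at 40.3 FPKM in q2 and 9.94 FPKM in q1 (response 1.92). Fdps, which makes farnesyl diphosphate, had the largest response of the list at 2.14, with 152 FPKM in q2 and 33.7 FPKM in q1. Sqle, which oxidises squalene, was at 37.8 FPKM in q2 and 7.85 FPKM in q1 (response 2.13). Lss, which closes the sterol ring and shares its locus with another row, was at 14.7 FPKM in q2 and 3.18 FPKM in q1, and Cyp51, the lanosterol demethylase, at 27.3 FPKM in q2 and 7.55 FPKM in q1. Dhcr7, a late sterol reductase, was at 15.8 FPKM in q2 and 6.59 FPKM in q1 (response 1.15). The factor gene Srebf2, from a shared locus, was at 91.6 FPKM in q2 and 50.3 FPKM in q1. Tm7sf2, a sterol reductase at 5.90 FPKM in q2 and 3.12 FPKM in q1, and Fdft1, the squalene synthase at 45.7 FPKM in q2 and 38.1 FPKM in q1, were not called, and both share their loci with other rows.

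**Figure D3:**
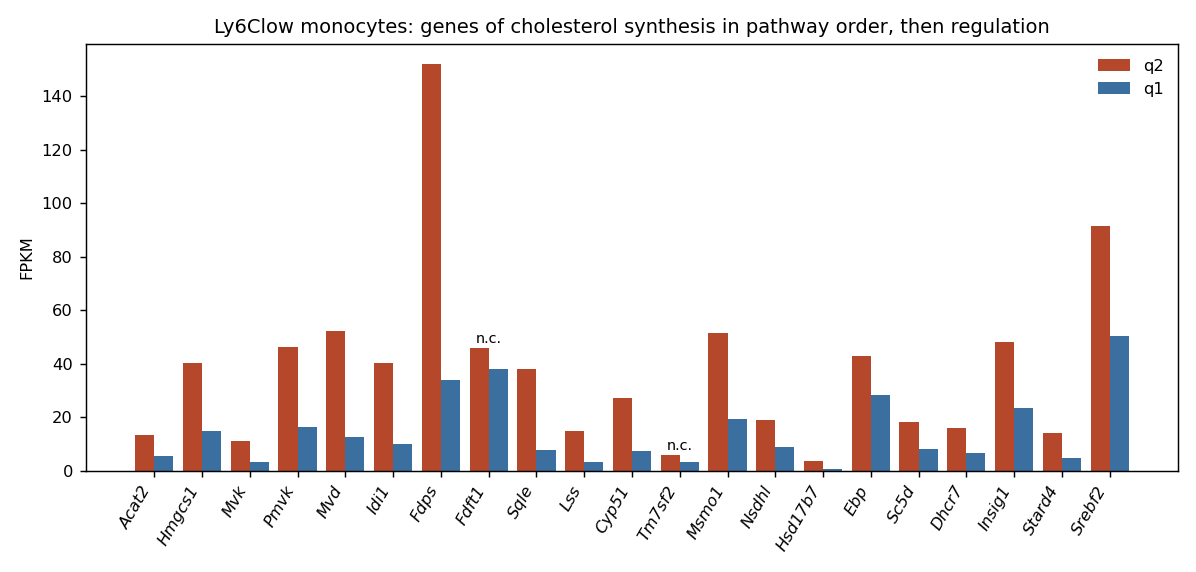
FPKM in q2 (left bar of each gene) and q1 (right bar) for 21 of the 24 measured genes of cholesterol synthesis in pathway order, followed by regulation, with n.c. over the 2 genes that were not called. The bar of q2 is the taller at each gene, and Fdps is the tallest at 152 FPKM in q2 and 33.7 in q1.

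The promoters of these genes were read because the members moved together. RefSeq promoter windows of GRCm38.p6 were matched by symbol for 17 of the 24 genes, and the 250 bases before the start were searched on both strands for 12 motifs. CCAAT, the box bound by NF-Y, a partner of SREBP2, occurred in 16 of the 17, which is 94.1%, against 40.4% of the promoters of measured genes and 37.5% of all promoters in the table. It was in 41.7% of the promoters of genes called higher with a response of at least 1, and in 39.8% of those called lower with a response of -1 or below. The sterol element TCACNCCAC occurred in 1 of the 17, in Hmgcs1, against 1.2% of the promoters of measured genes. No match says only that these letters are not in this window. The other motifs searched were TGACGTCA (CRE), TGANTCA (AP-1), CACGTG (E-box), GAAA followed by any 2 bases and GAAA (interferon element), GGGA followed by any base and TTTCC (NF-kB), TGACNNNGC (antioxidant element), ACANNNTGT (glucocorticoid element), GAGGAAGT (PU.1), CCGGAAGT (ETS) and the CArG box. In genes called higher with a response of at least 1, some were above the share of measured genes, as PU.1 with 8.63% against 3.34% and the glucocorticoid element with 10.8% against 4.28%. Others were below it, as ETS with 2.16% against 7.45% and CRE with 0.719% against 3.14%. These differences were not tested. The stretches below, shown because nearly all of these promoters hold the box, show the box nearest the start with 25 bases on each side where the window allows, in the direction of transcription, with the motif in capitals; ATTGG is CCAAT read from the other strand. They lie at chr13:119690281-119690335 (plus strand, Hmgcs1), chr13:8885567-8885605 (plus strand, Idi1), chr8:122443423-122443474 (minus strand, Mvd), chr10:76531518-76531572 (plus strand, Lss), chr5:4104698-4104751 (minus strand, Cyp51) and chr7:143830140-143830194 (plus strand, Dhcr7), and the sterol element at chr13:119690189-119690247 (plus strand, Hmgcs1).
Hmgcs1 CCAAT box: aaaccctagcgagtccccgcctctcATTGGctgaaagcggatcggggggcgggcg
Idi1 CCAAT box: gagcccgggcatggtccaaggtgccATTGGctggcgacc
Mvd CCAAT box: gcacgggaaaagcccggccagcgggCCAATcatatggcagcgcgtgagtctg
Lss CCAAT box: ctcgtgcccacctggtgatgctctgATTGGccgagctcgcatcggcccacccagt
Cyp51 CCAAT box: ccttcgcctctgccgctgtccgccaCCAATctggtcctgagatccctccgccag
Dhcr7 CCAAT box: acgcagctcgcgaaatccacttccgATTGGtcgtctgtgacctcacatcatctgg
Hmgcs1 sterol element: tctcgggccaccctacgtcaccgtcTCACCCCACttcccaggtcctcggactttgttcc

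Fatty acid synthesis moved the same way in part. Of 22 measured genes of this list, which SREBP1 controls, 14 were called higher and 3 lower, with a median response of 0.47. That is 77.3% called, against 27.6% over all measured genes. Fasn, the fatty acid synthase, was at 15.3 FPKM in q2 and 4.77 FPKM in q1 (response 1.5). Scd2, a desaturase, was at 63.1 FPKM in q2 and 18.9 FPKM in q1 (response 1.69) and shares its locus with another row. Elovl6, an elongase, was at 3.75 FPKM in q2 and 1.36 FPKM in q1, and Lpin1, a phosphatidate phosphatase, at 8.22 FPKM in q2 and 3.84 FPKM in q1. The 3 called lower were Acsl1, Lpin2 and Dgat1, which activate fatty acids or make glycerides. Acsl5, another activating enzyme at 91.5 FPKM in q2 and 86.9 FPKM in q1, was not called.

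Genes of lipid export and lipoproteins moved the other way. Of 15 measured targets of the oxysterol receptor LXR, LXR and RXR genes and apolipoproteins, 3 were called higher and 10 lower. The median response was -0.40 and 86.7% were called, against 27.6% over all measured genes. Apoe, Apoc2 and Apoc1 fell the most. Pltp, the phospholipid transfer protein, was at 83.2 FPKM in q2 and 246 FPKM in q1 (response -1.56) and shares its locus with other rows. Abca1, the cholesterol exporter, was at 0.934 FPKM in q2 and 3.85 FPKM in q1 (response -1.33), while Abcg1, its partner, was at 47.4 FPKM in q2 and 40.9 FPKM in q1 and was not called. The 3 called higher were the receptor genes Rxra at 35.7 FPKM in q2 and 13.9 FPKM in q1 and Nr1h3 at 19.1 FPKM in q2 and 14.5 FPKM in q1, and the lipase gene Lpl at 16 FPKM in q2 and 10.2 FPKM in q1. Of 18 genes of fatty acid binding, oxidation and PPAR signalling, 7 were called higher and 3 lower (median 0.14). Fabp5 had a response of 5.57, while Fabp4, its close relative, was at 394 FPKM in q2 and 360.4 FPKM in q1 and was not called. Pparg, the nuclear receptor, was at 49.3 FPKM in q2 and 115 FPKM in q1 (response -1.21). The lipid droplet coat gene Plin2 was at 123.3 FPKM in q2 and 178 FPKM in q1 and was called lower. Beside the fall of Apoe and Trem2, which tissue macrophages also express, stands the macrophage marker list with 6 of 10 called lower and 1 higher. Its part was not tested.

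**Figure D4:**
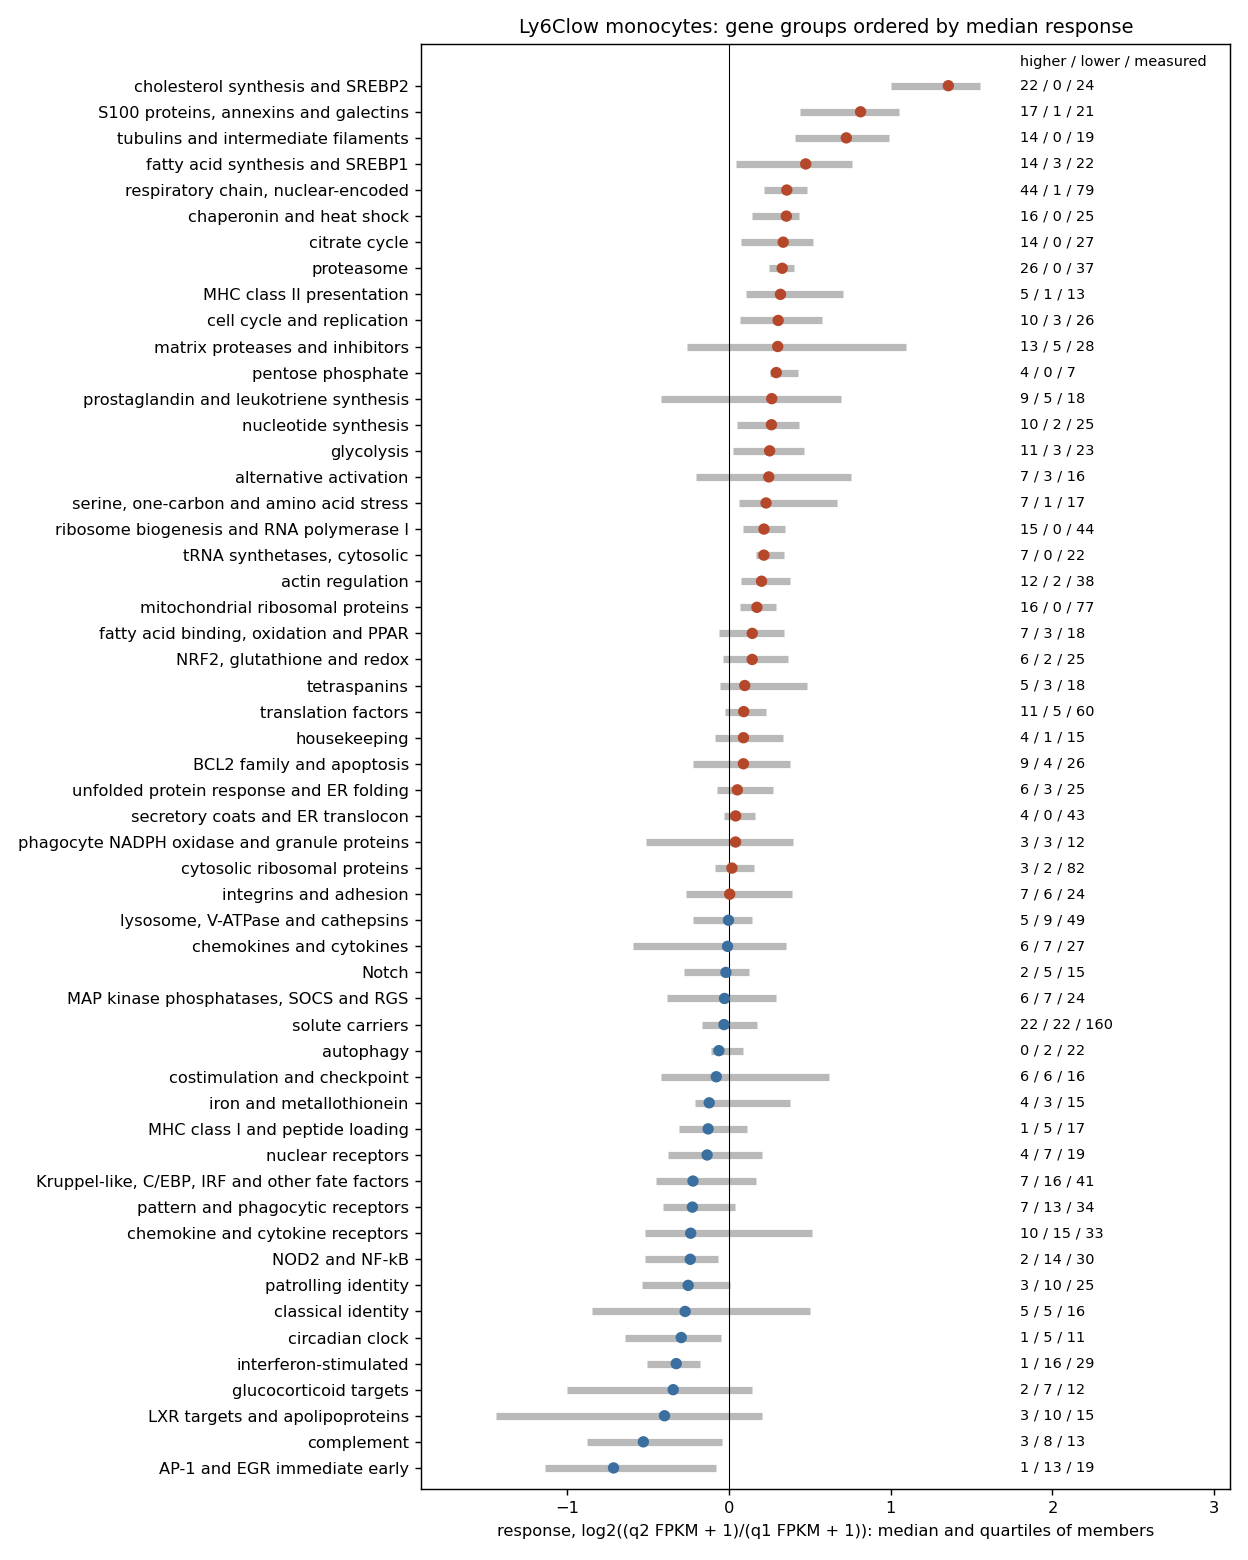
Median response (point) and quartiles (grey bar) of the measured members of each gene group with at least 7 measured genes, markers of other cells left out, with the counts called higher, called lower and measured at the right. Cholesterol synthesis lies at the top with a median of 1.36 and the AP-1 and EGR immediate early genes at the bottom with -0.71.

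Most genes of the calcium-binding and tubulin lists were higher in q2, and genes of actin regulation in part. S100 proteins bind calcium and shape motility, annexins bind membranes and galectins bind glycans. Of 21 measured genes of these families, 17 were called higher and 1 lower, with a median response of 0.81. That is 85.7% called, against 27.6% over all measured genes. Anxa3 was at 29.2 FPKM in q2 and 5.70 FPKM in q1 (response 2.17). Lgals1, galectin-1, was at 251 FPKM in q2 and 74.7 FPKM in q1 (response 1.74). S100a6 was at 877 FPKM in q2 and 309.9 FPKM in q1 (response 1.5). The gene called lower was Lgals3bp, a galectin ligand, at 51.1 FPKM in q2 and 74 FPKM in q1 (response -0.53), and Anxa1 at 101 FPKM in q2 and 119 FPKM in q1 was not called. S100a8 and S100a9, which also mark neutrophils, were at 9.59 FPKM in q2 and 5.03 FPKM in q1 and at 12.3 FPKM in q2 and 6.20 FPKM in q1, and both were called higher. Of the neutrophil markers, Retnlg, a secreted resistin-like protein, was called higher at 16.2 FPKM in q2 and 4.95 FPKM in q1 and Csf3r, the G-CSF receptor, was called lower at 63.7 FPKM in q2 and 137 FPKM in q1. The granule genes given above were near 0 in both conditions. The part of neutrophils in these values was not tested.

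Of 19 measured tubulin, intermediate filament and related genes, 14 were called higher and 0 lower, with a median of 0.73. That is 73.7% called, against 27.6% over all measured genes. In the 16 cases where a list had 0 calls in a direction, the members at an unadjusted p under 0.05 by Cuffdiff in that direction were Gabarap of autophagy and Vars of the tRNA synthetases. Emp1 had the highest response of the tubulin list, at 11.2 FPKM in q2 and 2.61 FPKM in q1 (response 1.76). It encodes a membrane protein, not a tubulin or filament, and is counted among the genes called higher. List members were chosen with earlier results of these data known. Tuba1b was at 255 FPKM in q2 and 91.2 FPKM in q1 (response 1.47) and Tuba1a at 81.7 FPKM in q2 and 37.5 FPKM in q1 (response 1.10). These alpha tubulins are near-identical in sequence, so reads can be split between them. Tuba4a, which shares its locus with another row, was at 139.9 FPKM in q2 and 49.4 FPKM in q1. Krt80 was at 426 FPKM in q2 and 427 FPKM in q1, from a shared locus, and was not called. Among 38 genes of actin regulation 12 were called higher, 2 lower and 24 were not called (median 0.20). The share called was 36.8%, against 27.6% over all measured genes. Beside Capg and Tmsb10, Actn1, which bundles actin, was at 8.59 FPKM in q2 and 3.53 FPKM in q1, and Fscn1, the bundling protein of mature dendritic cells, at 1.88 FPKM in q2 and 0.190 FPKM in q1. Tmsb4x was at 13888 FPKM in q2 and 11380.5 FPKM in q1 and was not called. The 2 called lower were Evl, whose locus is shared, and the myosin gene Myo1f.

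Many genes of energy metabolism, the proteasome and the chaperonins were slightly higher in q2, and few members of these lists were called lower. For comparison, 14.8% of all measured genes were called higher and 12.8% lower. Of 79 nuclear-encoded genes of the respiratory chain, 44 were called higher and 1 lower. Their median was 0.36, and 75 had a response above 0. Cox8a, a subunit of complex IV, was at 385 FPKM in q2 and 222 FPKM in q1 (response 0.79), Cox7b at 92.2 FPKM in q2 and 53.2 FPKM in q1 and Ndufa5 of complex I at 55.7 FPKM in q2 and 33.7 FPKM in q1. The gene called lower was Cox7a2l at 151 FPKM in q2 and 196 FPKM in q1. Of 27 genes of the citrate cycle 14 were called higher and 0 lower (median 0.34), led by Mdh2 at 265 FPKM in q2 and 139.9 FPKM in q1. Acly, which turns citrate into cytosolic acetyl-CoA for lipid synthesis, was at 122 FPKM in q2 and 67.4 FPKM in q1 (response 0.84). Of 23 glycolysis genes 11 were called higher and 3 lower (median 0.25). Aldoc was at 11 FPKM in q2 and 3.54 FPKM in q1 (response 1.40), the glucose transporter gene Slc2a1 at 30.8 FPKM in q2 and 16.7 FPKM in q1 and Gapdh at 951 FPKM in q2 and 575 FPKM in q1. The enolase gene Eno1 is in a joint row with Eno1b outside these 23, which shares its locus and was called higher at 572 FPKM in q2 and 362 FPKM in q1. The 3 called lower were the regulatory kinase genes Pfkfb3 at 10.8 FPKM in q2 and 18.4 FPKM in q1 and Pfkfb4 at 57 FPKM in q2 and 76.7 FPKM in q1, and the transporter gene Slc2a6. Of 7 pentose phosphate genes 4 were called higher and 0 lower, with Pgd at 178 FPKM in q2 and 132 FPKM in q1. The response of Aldoc was the largest in these 4 lists. Lists can share members, so their counts are not separate from each other.

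Of 37 proteasome genes 26 were called higher and 0 lower, with a median of 0.33 and a highest response of 0.63. That is 70.3% called, against 27.6% over all measured genes. Psmd14, a lid deubiquitinase, was at 65.6 FPKM in q2 and 42 FPKM in q1, and Psma5, a core subunit, at 84.8 FPKM in q2 and 58 FPKM in q1. The immunoproteasome subunit Psmb8 was at 293 FPKM in q2 and 256 FPKM in q1 and was not called. Of 25 chaperonin and heat shock genes 16 were called higher and 0 lower (median 0.36, lowest response -0.13). Hspe1, the mitochondrial co-chaperonin, was at 92.3 FPKM in q2 and 50.2 FPKM in q1, Cct3 of the cytosolic chaperonin at 99.1 FPKM in q2 and 65.3 FPKM in q1 and Hsp90ab1 at 896 FPKM in q2 and 627 FPKM in q1. Hspa8 was at 922 FPKM in q2 and 837 FPKM in q1 and was not called. The unfolded protein response list had 6 higher and 3 lower of 25, or 36%. Xbp1, a factor that expands the endoplasmic reticulum, was at 317 FPKM in q2 and 165 FPKM in q1 (response 0.94), while Hspa5, the BiP chaperone gene, was at 205 FPKM in q2 and 267 FPKM in q1 and was called lower.

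Lists of the translation machinery differed in their share of called genes, against 27.6% over all measured genes. Ribosome biogenesis had 15 of 44 called higher and 0 lower, 34.1% in all (median 0.22), with Fbl, the fibrillarin gene, at 118 FPKM in q2 and 71.1 FPKM in q1 and Myc at 4.38 FPKM in q2 and 2.43 FPKM in q1. Mitochondrial ribosomal proteins had 16 of 77 higher and 0 lower, 20.8% (median 0.17), and cytosolic tRNA synthetases 7 of 22 higher and 0 lower, 31.8% (median 0.22). Translation factors had 11 higher and 5 lower of 60, or 26.7%. Of 82 cytosolic ribosomal protein genes 3 were called higher and 2 lower, 6.10%, with a median of 0.02. Those called higher were Rps27l, Rps2 and Rpl7a, and Fau was among those called lower. Processed pseudogenes of this family can share its reads, and Rps2 shares its locus with another row.

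Nucleotide synthesis had 10 of 25 called higher and 2 lower (median 0.26), 48% in all against 27.6% over all measured genes. Uck2, a uridine kinase, was at 10.8 FPKM in q2 and 1.33 FPKM in q1 (response 2.34). Cell cycle and replication had 10 of 26 higher and 3 lower (median 0.30), 50% in all. Ccnd2, cyclin D2, was at 31.5 FPKM in q2 and 7.28 FPKM in q1 (response 1.97) and shares its locus, while Mki67, the proliferation marker, was at 3.03 FPKM in q2 and 3.64 FPKM in q1 and was not called. The replication helicase gene Mcm2 was at 9.89 FPKM in q2 and 5.21 FPKM in q1. The lower ones were Tyms and the cell cycle inhibitor genes Cdkn1a at 60.6 FPKM in q2 and 74.7 FPKM in q1 and Cdkn1b at 70.7 FPKM in q2 and 102 FPKM in q1. Serine and one-carbon genes had 7 of 17 higher and 1, Atf4, lower, 47.1% in all. Slc7a5, a subunit of the leucine transporter, was at 5.83 FPKM in q2 and 1.78 FPKM in q1 (response 1.30), and Psat1, of serine synthesis, at 10.9 FPKM in q2 and 4.74 FPKM in q1.

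**Figure D5:**
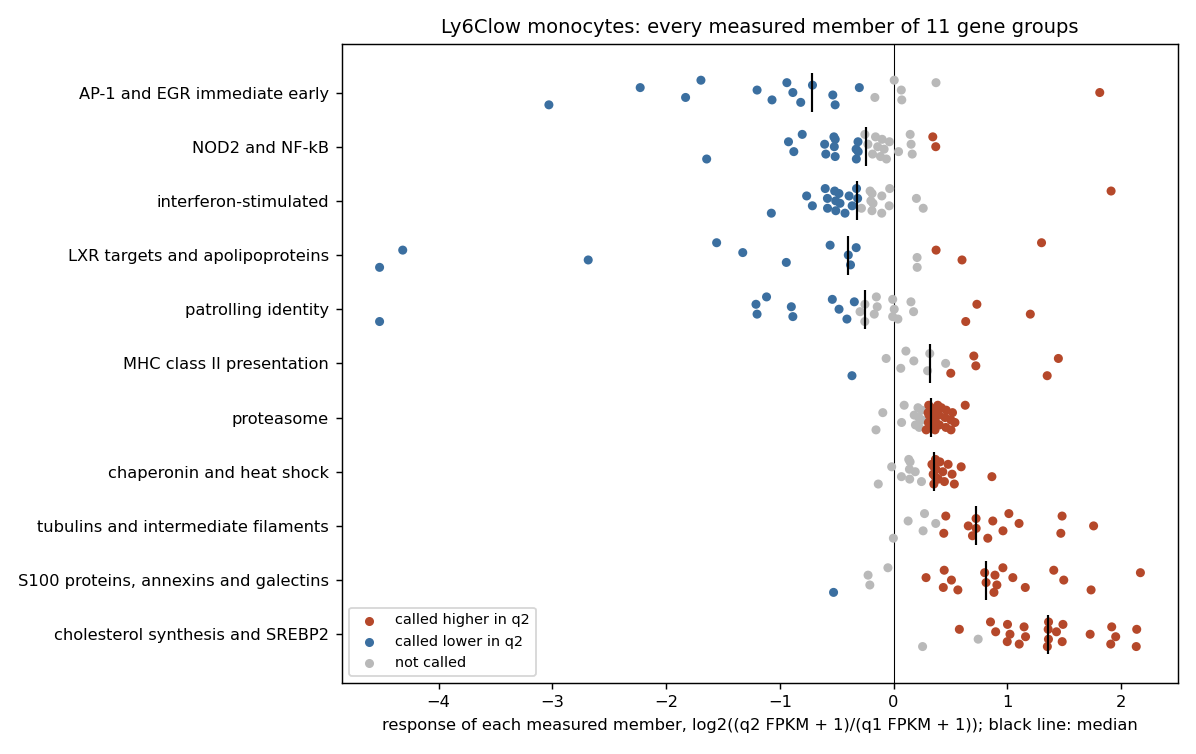
Response of every measured member of 11 gene groups (points), coloured by its call, with the median of each group as a black line. The points of the cholesterol group all lie above 0, those of the proteasome and chaperonin groups form narrow bands from -0.15 to 0.86, and the immediate early group spreads from -3.03 to 1.81.

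Immediate early genes, which are transcribed within minutes of a stimulus, were lower in q2. Of 19 measured, 13 were called lower and 1 higher, against 12.8% lower over all measured genes, and the median response was -0.71. Fos, Egr1, Junb and Atf3 fell the most, with the values given above. Jun, the partner of Fos, was at 21 FPKM in q2 and 35 FPKM in q1, and Ier2 at 115 FPKM in q2 and 241 FPKM in q1. Zfp36 had a response of -1.20 and Nr4a1 of -0.89. The exception was Egr2, a factor of macrophage activation and of cells treated with interleukin-4, at 8.10 FPKM in q2 and 1.59 FPKM in q1 (response 1.81). Klf2 was at 274 FPKM in q2 and 272 FPKM in q1 and was not called. Of 7 measured Dusp genes, phosphatases that end MAP kinase signalling, 4 were called lower and 1 higher. Dusp1 had a response of -1.59 and Dusp2 was at 37.3 FPKM in q2 and 108 FPKM in q1, while Dusp16 was called higher at 152 FPKM in q2 and 118 FPKM in q1. Rgs1, which dampens chemokine receptor signals, was at 6.68 FPKM in q2 and 19.7 FPKM in q1 (response -1.43). In the list of MAP kinase phosphatases, SOCS and RGS genes as a whole, 6 of 24 were called higher and 7 lower. That is 54.2% called, against 27.6% over all measured genes.

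Of 8 measured genes of the SOCS family in that list, feedback inhibitors of cytokine receptors, 3 were called higher and 5 were not called. Among all measured genes 14.8% were called higher. Cish had a response of 4.68, and Socs2 was at 4.21 FPKM in q2 and 0.0812 FPKM in q1 (response 2.27). Socs3 was at 72.7 FPKM in q2 and 55.2 FPKM in q1 (response 0.39). The shared beta chain of the receptors for GM-CSF, interleukin-3 and interleukin-5, Csf2rb, was at 149 FPKM in q2 and 73.2 FPKM in q1, and Csf2rb2, its interleukin-3 copy, at 32.9 FPKM in q2 and 9.33 FPKM in q1. These neighbouring copies are similar in sequence and each shares its locus with another row, so their levels are uncertain.

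Genes of the NOD2 and NF-kB pathway were called lower in q2 for 14 of 30 and higher for 2. That is 53.3% called, against 27.6% over all measured genes, of which 12.8% were lower and 14.8% higher. The median of this list was -0.24, with 24 responses below 0. Nfkbiz, an inducible nuclear regulator, was at 37.7 FPKM in q2 and 119.9 FPKM in q1 (response -1.64). Relb, of the noncanonical pathway, was at 16.1 FPKM in q2 and 30.4 FPKM in q1. Tnfaip3, the A20 feedback inhibitor, was at 19.8 FPKM in q2 and 35.3 FPKM in q1 (response -0.80). Nfkbia, which encodes the inhibitor that holds NF-kB in the cytosol, was at 166 FPKM in q2 and 315 FPKM in q1, from a locus shared by 5 rows. The 2 called higher were Nfkb1, the p50 precursor, at 205 FPKM in q2 and 158 FPKM in q1, and Slc15a3, an endosomal peptide transporter from a shared locus, at 59.8 FPKM in q2 and 46.9 FPKM in q1. Card9 was at 136 FPKM in q2 and 144 FPKM in q1 and was not called.

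Interferon-stimulated genes were lower in q2 for 16 of 29 and higher for 1, with a median of -0.33 and 26 responses below 0. Ifit3, which binds viral RNA, was at 4.52 FPKM in q2 and 10.6 FPKM in q1 (response -1.07). Oasl2 was at 15 FPKM in q2 and 26.2 FPKM in q1 and Mx1, an antiviral GTPase, at 21.3 FPKM in q2 and 35.6 FPKM in q1. The exception was Ifi205, a PYHIN family gene, at 8.14 FPKM in q2 and 1.43 FPKM in q1 (response 1.91), a family of similar copies among which reads can be split. Irf7 at 106 FPKM in q2 and 121 FPKM in q1 was not called. In the 250 bases before the start the interferon response element, GAAA with any 2 bases before a further GAAA, was found on either strand in 9 of the 20 genes with a promoter in the table, or 45%, against 3.46% of measured genes and 3.46% of all promoters. The stretches below, in the direction of transcription, show the element in capitals in 3 genes called lower and in Isg15, a ubiquitin-like protein at 20.2 FPKM in q2 and 16.7 FPKM in q1 that was not called, and TTTC runs are the element read from the other strand. They lie at chr19:34583382-34583441 (plus strand, Ifit3), chr5:120777700-120777759 (minus strand, Oas3), chr12:26456538-26456597 (minus strand, Rsad2) and chr4:156200850-156200909 (minus strand, Isg15).
Ifit3: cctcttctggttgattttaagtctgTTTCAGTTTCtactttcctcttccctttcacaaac
Oas3: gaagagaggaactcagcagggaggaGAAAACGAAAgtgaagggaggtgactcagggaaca
Rsad2: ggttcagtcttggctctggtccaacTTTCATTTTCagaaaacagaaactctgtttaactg
Isg15: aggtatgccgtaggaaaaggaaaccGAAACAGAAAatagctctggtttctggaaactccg
The element was also found before Ifi205, the gene of this list called higher, so that it occurred in genes called lower, not called and called higher.

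Chemokines and cytokines split, with 6 of 27 called higher and 7 lower, 48.1% in all against 27.6% over all measured genes. Ccl22, which shares the receptor CCR4 with Ccl17, was at 4.93 FPKM in q2 and 0.637 FPKM in q1 (response 1.86). Il1rn, the interleukin-1 receptor antagonist, was at 9.80 FPKM in q2 and 3.21 FPKM in q1 (response 1.36), whereas Il1b itself was at 41.1 FPKM in q2 and 75.3 FPKM in q1 (response -0.86, shared locus). Ccl3, a chemokine that draws monocytes and T cells, was at 9.04 FPKM in q2 and 21 FPKM in q1 (response -1.13). Ccl6 was at 508 FPKM in q2 and 424 FPKM in q1 and was not called. The tumour necrosis factor gene Tnf was at 21.8 FPKM in q2 and 22.7 FPKM in q1 and was not called either. Dendritic cells also make Ccl17 and Ccl22, and the dendritic cell markers called higher included Fscn1, Kmo at 20.4 FPKM in q2 and 8.60 FPKM in q1, Cacnb3 at 1.33 FPKM in q2 and 0.128 FPKM in q1 and Zbtb46, a factor of conventional dendritic cells, at 7.88 FPKM in q2 and 3.76 FPKM in q1. Flt3, which dendritic cells carry, was at 5.88 FPKM in q2 and 12 FPKM in q1 and Clec9a at 1.51 FPKM in q2 and 3.05 FPKM in q1, both called lower, while Xcr1 and Siglech stayed under 1 FPKM in both conditions. The part of dendritic cells in these values was not tested.

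Alternative activation genes, which interleukin-4 and interleukin-13 induce in macrophages, had 7 of 16 called higher and 3 lower (median 0.25). That is 62.5% called, against 27.6% over all measured genes. Beside Ccl17, Ccl22 and Egr2, the receptor gene Il4ra was at 43.2 FPKM in q2 and 28 FPKM in q1 and the factor gene Irf4 at 20.5 FPKM in q2 and 12.2 FPKM in q1. Arg1, arginase, was called higher from a low level, at 1.79 FPKM in q2 and 0.464 FPKM in q1. The widely used marker Retnla was called lower, at 147 FPKM in q2 and 302 FPKM in q1 (response -1.04). Tgm2 was at 154 FPKM in q2 and 166 FPKM in q1 and was not called.

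Receptors for chemokines and cytokines were called in 25 of 33, 10 higher and 15 lower, a share of 75.8% against 27.6% over all measured genes. Cx3cr1, the fractalkine receptor through which patrolling monocytes survive, was at 134 FPKM in q2 and 250.5 FPKM in q1 (response -0.90). Cxcr4, which retains cells in bone marrow, was at 107 FPKM in q2 and 245 FPKM in q1 (response -1.18), and Ccrl2 at 4.80 FPKM in q2 and 12.8 FPKM in q1 (response -1.25). Csf1r, the receptor for the growth factor of monocytes, was at 717 FPKM in q2 and 991 FPKM in q1, from a shared locus, and was called lower. Both chains of the type I interferon receptor, Ifnar1 at 17.3 FPKM in q2 and 26 FPKM in q1 and Ifnar2 at 72.8 FPKM in q2 and 120.1 FPKM in q1, were called lower. Ifngr1 was at 518 FPKM in q2 and 499 FPKM in q1 and was not called.

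The genes that define the subset were lower in part. Of 25 measured patrolling genes 3 were called higher and 10 lower (median -0.25), 52% in all against 27.6% over all measured genes. The lowest response of this list was that of Apoe at -4.52, which is also counted among the LXR targets and apolipoproteins. Fcgr4 had a response of -1.20, Pparg of -1.21 and Emr4, an adhesion receptor, was at 194 FPKM in q2 and 423 FPKM in q1 (response -1.12). The 3 called higher were Cd9, the integrin gene Itgax at 258 FPKM in q2 and 155 FPKM in q1 and Bcl2a1d, an anti-apoptotic gene, at 190.1 FPKM in q2 and 122 FPKM in q1. Gngt2 was at 1450.1 FPKM in q2 and 1458 FPKM in q1 and was not called. Ear2, a listed ribonuclease gene, is in a joint row with Ear3 outside these 25, and it was called lower with a response of -0.80. Of 16 measured genes of classical monocytes 5 were called higher and 5 lower, 62.5% in all, so that the list did not move in 1 direction. Plac8 and Ly6a, the Sca-1 antigen, at 83 FPKM in q2 and 47.2 FPKM in q1, were higher. Hp, haptoglobin, at 82.6 FPKM in q2 and 188 FPKM in q1 and the lysozyme gene Lyz1 at 439 FPKM in q2 and 850.2 FPKM in q1 were lower, and Lyz2, the abundant lysozyme gene, was at 5115 FPKM in q2 and 9717 FPKM in q1 and was not called. Lyz1 and Lyz2 are near-identical copies, so the split of reads between them is uncertain.

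Of 41 transcription factors of the Kruppel-like, C/EBP, IRF and other families that set myeloid fate, 7 were called higher and 16 lower (median -0.22). For this list and those below, the shares over all measured genes were 14.8% higher and 12.8% lower. Gfi1b, a repressor of the erythroid and megakaryocyte line, was at 13.3 FPKM in q2 and 1.26 FPKM in q1 (response 2.66). Ets2 was at 13.3 FPKM in q2 and 32 FPKM in q1 (response -1.21) and Hes1, a Notch target, at 21.5 FPKM in q2 and 49.2 FPKM in q1 (response -1.15). Id1, an inhibitor of helix-loop-helix factors, was at 25.7 FPKM in q2 and 11.5 FPKM in q1, whereas Id2 at 119 FPKM in q2 and 177 FPKM in q1 and Id3 at 9.27 FPKM in q2 and 15.8 FPKM in q1 were lower. Spi1, which encodes PU.1, was at 590.3 FPKM in q2 and 600.4 FPKM in q1 and was not called. Nuclear receptors had 4 of 19 higher and 7 lower. Vdr, the vitamin D receptor, was at 2.35 FPKM in q2 and 0.169 FPKM in q1 (response 1.52), and Rarg at 59.4 FPKM in q2 and 35.2 FPKM in q1. Circadian clock genes had 1 of 11 higher and 5 lower, led by Tef at 9.21 FPKM in q2 and 18.3 FPKM in q1 and Per1 at 19.5 FPKM in q2 and 36.7 FPKM in q1. Targets of glucocorticoids had 2 of 12 higher and 7 lower. They moved apart, with Fkbp5 at 9.12 FPKM in q2 and 3.94 FPKM in q1 (response 1.03) and Zbtb16 at 4.93 FPKM in q2 and 14.2 FPKM in q1 (response -1.36). Dusp1 and Cd163, which belong to this list and to others, fell. Notch genes had 2 of 15 higher and 5 lower, and the ligand gene Jag1 was at 0.825 FPKM in q2 and 2.48 FPKM in q1.

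Pattern and phagocytic receptors were called lower for 13 of 34 and higher for 7 (median -0.23). That is 58.8% called, against 27.6% over all measured genes. Clec4n had a response of 3.46 and Trem2 of -2.30. Marco, a scavenger receptor, was at 3.38 FPKM in q2 and 0.629 FPKM in q1 (response 1.43), and Cd14, the co-receptor for lipopolysaccharide, at 41.5 FPKM in q2 and 19.8 FPKM in q1 (response 1.03). Toll-like receptor genes included Tlr2 at 22.8 FPKM in q2 and 44.4 FPKM in q1, Tlr8 at 12.7 FPKM in q2 and 24.4 FPKM in q1, Tlr7 at 78.1 FPKM in q2 and 104 FPKM in q1 and Tlr9 at 11.5 FPKM in q2 and 16.9 FPKM in q1, all called lower. Tlr4, at 6.77 FPKM in q2 and 8.30 FPKM in q1, and the other measured Toll-like receptor genes were not called. Cd68 was at 588 FPKM in q2 and 633 FPKM in q1 and was not called.

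Complement genes were called lower for 8 of 13 and higher for 3, with a median of -0.53. That is 84.6% called, against 27.6% over all measured genes. Cfp, properdin, was at 198 FPKM in q2 and 76.5 FPKM in q1 (response 1.36). Cfb, factor B of the same alternative pathway, was at 7.05 FPKM in q2 and 2.24 FPKM in q1 and shares its locus. The 3 chains of C1q, which start the classical pathway, fell by similar amounts, with C1qa at 14.6 FPKM in q2 and 29.1 FPKM in q1, C1qb at 24.7 FPKM in q2 and 45.6 FPKM in q1 and C1qc at 10.1 FPKM in q2 and 20.5 FPKM in q1. The C1q genes are also members of the macrophage marker list, of which Vsig4 at 0.297 FPKM in q2 and 1.37 FPKM in q1, Siglec1 at 0.276 FPKM in q2 and 1.16 FPKM in q1 and Emr1 at 39.4 FPKM in q2 and 135 FPKM in q1 were also called lower. Marco of the same list was called higher at 3.38 FPKM in q2 and 0.629 FPKM in q1. Spic was not called at 10.1 FPKM in q2 and 7.86 FPKM in q1. The C1q genes are thus among the 6 of 10 markers called lower in that list, with 1 called higher. Clec4f, which marks liver macrophages, was at most 0.0289 FPKM in either condition, and the part of macrophages in these values was not tested.

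Antigen presentation through class II was higher in part. Of 13 measured genes 5 were called higher and 1 lower, 46.2% in all against 27.6% over all measured genes, with a median of 0.32. Ifi30, a lysosomal thiol reductase that opens antigens, was at 763 FPKM in q2 and 299 FPKM in q1 (response 1.35). The exchange factor chains H2-DMb2 at 72 FPKM in q2 and 25.7 FPKM in q1 and H2-DMa at 161 FPKM in q2 and 98.5 FPKM in q1, and Ciita, the master regulator, at 19.5 FPKM in q2 and 11.4 FPKM in q1, were called higher. The classical chains H2-Ab1 at 1330.3 FPKM in q2 and 1067 FPKM in q1, H2-Aa at 1445 FPKM in q2 and 1277 FPKM in q1 and Cd74, the invariant chain, at 5223 FPKM in q2 and 3802 FPKM in q1 were not called. Ctss, which cuts the invariant chain, was at 1255 FPKM in q2 and 1617 FPKM in q1 and was called lower. B cells carry class II too, and beside this list Cd79a, a chain of the B cell receptor complex, was at 79.6 FPKM in q2 and 51.6 FPKM in q1, Ms4a1, from a shared locus, at 20.2 FPKM in q2 and 13.3 FPKM in q1 and Blk at 10 FPKM in q2 and 6.16 FPKM in q1, all called higher. The part of B cells in these values was not tested. Class I and peptide loading had 1 of 17 called higher and 5 lower, 35.3% in all against 27.6% over all measured genes. Responses in this list were above 0 for 8 genes and below 0 for 9 (median -0.13). H2-K1, one of a family of similar heavy chain genes among which reads can be split, had a response of -0.54, Tapbp, tapasin, was at 122 FPKM in q2 and 162 FPKM in q1, and the 1 called higher was Psme2 at 330.1 FPKM in q2 and 265 FPKM in q1.

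Costimulation and checkpoint genes had 6 of 16 called higher and 6 lower, 75% in all against 27.6% over all measured genes. Cd80 was at 19 FPKM in q2 and 2.55 FPKM in q1 (response 2.50) and Cd200r1, an inhibitory receptor, at 6.84 FPKM in q2 and 2.56 FPKM in q1. Tnfsf13b, the B cell survival factor BAFF, was at 5.86 FPKM in q2 and 11.8 FPKM in q1. Adhesion genes had 7 of 24 higher and 6 lower, 54.2% in all. Cd24a was at 48.8 FPKM in q2 and 19.4 FPKM in q1, Pecam1, the junction molecule CD31, at 86.9 FPKM in q2 and 36 FPKM in q1 (response 1.25) and Itgb5 at 50.7 FPKM in q2 and 87.1 FPKM in q1. Itgb2, the shared beta chain, was at 1189 FPKM in q2 and 1111 FPKM in q1 and was not called. Tetraspanins had 5 of 18 higher and 3 lower, among them Cd82 at 131 FPKM in q2 and 267 FPKM in q1, whose locus is shared.

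Proteases that act outside the cell, and their inhibitors, were called higher for 13 of 28 and lower for 5, or 64.3% in all. They had 8 responses of at least 1. Plau, urokinase, was at 7.58 FPKM in q2 and 1.60 FPKM in q1 (response 1.72), and Mmp12, macrophage elastase, at 2.56 FPKM in q2 and 0.146 FPKM in q1 (response 1.63). Spint1 was at 14.5 FPKM in q2 and 1.07 FPKM in q1, and Adam8, which shares its locus, at 23.4 FPKM in q2 and 6.37 FPKM in q1. Cst3, cystatin C, was at 2679 FPKM in q2 and 3375 FPKM in q1 and was not called. In the lysosome list 5 of 49 were called higher and 9 lower, a share of 28.6% that is near the 27.6% over all measured genes. Ctsc, which activates granule proteases, was at 285 FPKM in q2 and 113 FPKM in q1 (response 1.33), whereas Lgmn, legumain, was at 51.8 FPKM in q2 and 139.7 FPKM in q1 (response -1.41) and Ctse at 2.97 FPKM in q2 and 8.04 FPKM in q1.

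Enzymes and receptors of prostaglandin and leukotriene pathways were called in 14 of 18, 9 higher and 5 lower. That is 77.8%, against 27.6% over all measured genes. Ptgs1, cyclooxygenase-1, was at 9.33 FPKM in q2 and 4.90 FPKM in q1, and Lta4h, which makes leukotriene B4, at 128 FPKM in q2 and 67.2 FPKM in q1. Pla2g4a, which frees arachidonic acid, was at 11.6 FPKM in q2 and 5.82 FPKM in q1, while Alox5, the 5-lipoxygenase gene, was at 27.9 FPKM in q2 and 51.5 FPKM in q1. Hpgd, which inactivates prostaglandins, was at 152 FPKM in q2 and 309 FPKM in q1 (response -1.02). Among oxidase and granule genes 3 of 12 were called higher and 3 lower, 50% in all. Cybb, the catalytic chain of the phagocyte oxidase, was at 232 FPKM in q2 and 483 FPKM in q1 (response -1.06), while its cytosolic partner Ncf1 was at 179 FPKM in q2 and 106 FPKM in q1, so that subunits of this enzyme did not move together. Retnlg, a neutrophil marker, was at 16.2 FPKM in q2 and 4.95 FPKM in q1.

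Survival genes were called higher for 9 of 26 and lower for 4, 50% in all against 27.6% over all measured genes. The anti-apoptotic A1 genes Bcl2a1a at 155 FPKM in q2 and 59 FPKM in q1 and Bcl2a1b at 414 FPKM in q2 and 265 FPKM in q1 were called higher, and reads can be split between these near-identical copies. Bmf, which promotes death, was at 15 FPKM in q2 and 39.1 FPKM in q1 (response -1.32), and Casp4 at 19.1 FPKM in q2 and 32 FPKM in q1. Mcl1 was at 342 FPKM in q2 and 404 FPKM in q1 and was not called. Gm14005, listed in RefSeq as Morrbid and known to repress its neighbour Bcl2l11 in mouse myeloid cells, was at 52.8 FPKM in q2 and 4.37 FPKM in q1. The neighbour Bcl2l11, which encodes the death-promoting protein BIM, was at 6.02 FPKM in q2 and 7.03 FPKM in q1 and was not called.

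Redox, iron and transport genes went both ways, and few genes of recycling and secretion were called. The NRF2, glutathione and redox list had 6 of 25 higher and 2 lower, 32% against 27.6% over all measured genes. Mgst3 was at 17 FPKM in q2 and 7.89 FPKM in q1, and Nfe2l2, which encodes NRF2 itself, at 68.3 FPKM in q2 and 108 FPKM in q1 and called lower. Iron and metallothionein genes had 4 of 15 higher and 3 lower. Tfrc, the transferrin receptor, was at 5.32 FPKM in q2 and 3.69 FPKM in q1, and Hmox1, haem oxygenase-1, at 80.6 FPKM in q2 and 115 FPKM in q1. Of 160 solute carriers 22 were higher and 22 lower, 27.5% against 27.6% over all measured genes. Autophagy had 0 of 22 called higher and 2 lower, Ulk1 and Map1lc3a. Secretory coat and translocon genes had 4 of 43 higher and 0 lower. Among 15 housekeeping genes 4 were called higher and 1 lower, or 33.3%. Pgk1 at 234 FPKM in q2 and 140.2 FPKM in q1, Gapdh, Ppia and Tfrc were higher, and Actb at 3622 FPKM in q2 and 3323 FPKM in q1 was not called.

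Genes that changed next to each other were listed as runs of adjacent rows at most 100 kb apart, all called in the same direction with a response of at least 1 in size. There were 14 runs, 9 higher and 5 lower, with 29 genes, and 3 runs held a row that shares its locus. The longest was the apolipoprotein cluster of chromosome 7, with Apoc2 at 19671579 to 19677941, Apoc1 at 19689480 to 19692659 and Apoe at 19696244 to 19699166 in mm10, all protein-coding. Ccl22 (94745684 to 94751388) and Ccl17 (94810453 to 94812036) lie next to each other on chromosome 8 and were both higher. S100a4 (90603770 to 90606045) and S100a6 (90612894 to 90614414) on chromosome 3 and Tuba1b and Tuba1a on chromosome 15 were higher together. Cd209b at 5.20 FPKM in q2 and 1.66 FPKM in q1 and Cd209c at 41.5 FPKM in q2 and 14.5 FPKM in q1, C-type lectin genes of chromosome 8, were also both higher. Siglece lies beside Ceacam18, which was at 2.11 FPKM in q2 and 0.285 FPKM in q1. On the lower side were Hsd11b1, which activates glucocorticoids, at 21.4 FPKM in q2 and 47.8 FPKM in q1 with G0s2, a lipase inhibitor, at 23.2 FPKM in q2 and 50.2 FPKM in q1, and the dipeptidase genes Dpep2 at 18.2 FPKM in q2 and 55.3 FPKM in q1 and Dpep3 at 1.18 FPKM in q2 and 4.95 FPKM in q1. Atf3 lies beside Fam71a, which was at 0.108 FPKM in q2 and 1.51 FPKM in q1. The other runs were Csf2rb2 with Csf2rb, Sema4a with Lmna, Synpo with Ndst1, Acy1 with Abhd14a, and on the lower side Rcbtb2 with Lpar6.

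Long noncoding RNAs were called lower more often than higher. By the RefSeq class of each symbol, matched for 10544 of the measured rows, 7 of 270 long noncoding RNAs were called higher (2.59%) and 48 lower (17.8%), with a median response of -0.22. Among 10117 protein-coding genes 1547 were called higher (15.3%) and 1284 lower (12.7%), with a median of 0.0046. Without rows that share a locus, 3 of 126 long noncoding RNAs were higher and 36 lower. Gm5086 was at 2.93 FPKM in q2 and 15.2 FPKM in q1 and Gm16675 at 4.03 FPKM in q2 and 10.4 FPKM in q1. The small nucleolar RNA host genes Snhg12 at 10.7 FPKM in q2 and 22 FPKM in q1 and Snhg8 at 10.8 FPKM in q2 and 20.3 FPKM in q1 were lower, from shared loci, and Tug1, from a locus of its own, was lower at 28.9 FPKM in q2 and 37.6 FPKM in q1. Long noncoding RNAs were also less abundant, with a median level of 2.94 FPKM against 13.5 FPKM for protein-coding genes. Zinc finger genes named Zfp had 6 of 245 higher (2.45%) and 31 lower (12.7%), with a median of -0.07. Over all measured genes 14.8% were higher and 12.8% lower, so the Zfp genes differed in the share called higher only. Protein-coding genes over 100 kb long had 157 of 1053 higher (14.9%) and 221 lower (21.0%). Those under 3 kb had 92 of 539 higher (17.1%) and 60 lower (11.1%). These classes were chosen after the values were seen, and the part of gene length, level and overlapping genes in them was not tested. No source used here gives the counting strand, so reads of overlapping genes on opposite strands cannot be told apart.

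Some genes outside the naming rule were named after their values were seen, to complete a small count, for their known role or as examples of a class. They were Abca1, Acsl1, Actb, Alox5, Arg1, Atf4, Bcl2a1b, Bcl2a1d, Bcl2l11, C1qb, Cd14, Cdkn1a, Cdkn1b, Clec9a, Cox7a2l, Csf1r, Ctss, Cx3cr1, Cyp51, Dgat1, Dhcr7, Dusp16, Emr4, the joint row of Eno1 and Eno1b, Evl, Gm16675, H2-Aa and H2-Ab1. They also included Hmgcs1, Hspa5, Id2, Id3, Ier2, Ifnar1, Ifnar2, Il1b, Il4ra, Irf4, Isg15, Itgax, Jun, Lgals3bp, Lpin2, Lpl, Lss, Ly6a, Mki67, Myo1f, Ncf1, Nfkb1, Nr1h3, Pfkfb3 and Pfkfb4. The last of them were Ptgs1, Rarg, Retnla, Rgs1, Rpl7a, Siglec1, Slc15a3, Slc2a6, Snhg12, Snhg8, Socs3, Srebf2, Tlr2, Tlr4, Tlr7, Tlr8, Tlr9, Tm7sf2, Tnf, Tnfsf13b, Tug1, Tyms, Vars, Vsig4 and Zbtb46.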

How the data were processed

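RNA-seq of Ly6Clow monocytes was deposited as 1 gene table of this comparison. Per the submitters' processing notes, the tools were Trimmomatic 0.33, TopHat2 2.0.14, Bowtie2 2.2.5, Cufflinks 2.21 and Cuffdiff 2.21 with the build mm10, with settings that no source used here gives. The authors deposited 1 FPKM value per condition (q1 and q2), so the 3 samples of each are pooled and depth per sample, spread between samples and the share of unmapped reads are unknown. The authors also deposited Cuffdiff p-values and q-values, which measure only the spread that Cuffdiff modelled and may be technical where samples are not separate animals, and a test statistic, a score read here only to check that its sign follows q2 minus q1. Tests planned on single samples were replaced by the authors' q-values, since no value per sample was used here, and the table of the other monocyte subset was not used here.

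Rows that the authors tested, at 1 FPKM or more in q2 or q1, were kept. The response is log2((q2 FPKM + 1)/(q1 FPKM + 1)) of the deposited FPKM, computed with Python 3.11.15, pandas 2.3.3 and numpy 2.4.6, and figures with matplotlib 3.10.9. The computation was tested on simulated data. Of 10608 rows, 2399 share a deposited locus with another row and their levels are uncertain. A gene is called at a q-value under 0.05 in the authors' deposited table. Gene lists, 63 in all, are described by counts and medians. A gene can belong to several lists, as Gapdh and Pgk1 do to glycolysis and housekeeping, so the lists are not independent. Members and lists were chosen with earlier results of these data known. Genes were named by rule: the 15 largest called responses in each direction, the 10 largest called FPKM differences in each direction, in each list the 4 called members with the largest response and the not-called member with the highest level, a set of marker and pathway genes, called genes listed at 0 in one condition, members of neighbour runs and of lists of 5 or fewer measured genes. Gene classes, gene lengths and promoters come from RefSeq tables (GRCm38.p6). Alternatives were other thresholds, adjustments, filters, pseudocounts and scalings. Some members of the lists are counted but not reported by name here.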

Additional observations from a re-analysis of the deposited data

How the results depend on the processing

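Bonferroni adjustment over every gene tested left 0 genes called higher and 0 called lower, because the smallest p-value in the authors' deposited table is 5e-05, while 3961 measured genes had an unadjusted p under 0.05 by Cuffdiff. Requiring a response of at least 1 in size as well left 185 higher and 117 lower. With a pseudocount of 0.1 the genes called with a response of at least 1 in size numbered 280 higher and 180 lower, and with no pseudocount 292 and 191. The other alternatives stayed within 1.5 times of the main counts. They gave 1142 higher and 932 lower at q under 0.01, 1581 and 1372 with Benjamini-Hochberg adjustment over the measured genes, 1706 and 1466 with no filter, 1240 and 1112 from 5 FPKM up, and 1336 and 1150 without rows that share a locus. Leaving out small RNA rows, chosen after seeing the data, gave 1567 and 1355. Centring on the median left 188 and 116 genes with a response of at least 1 in size, and scaling to the same FPKM total 179 and 119. Of 403 genes chosen for naming, 26 lost their call at q under 0.01 and 329 under Bonferroni. At q under 0.01 the count called higher moved by over 1.5 times in 10 lists and the count called lower in 11. With a pseudocount of 0.1 the median response moved for 1 list, the eosinophil, basophil and mast cell markers with a single measured gene, to 0.890, against 0.45 with a pseudocount of 1. The median of the lysosome list was -0.00243 and became 0.000396 when centred.

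No paired analysis was possible because the table holds 1 value per condition, and for the same reason leaving out each replicate and the replicate block were not run. Precision per sample and depth are unknown, so each call rests on the authors' own test.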
